A study of Drosophila melanogaster with 16 samples.

Results

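Translation initiation and elongation factor mRNAs were followed over a metabolic labelling pulse and chase in the Drosophila melanogaster larval brain. The members were the genes whose FlyBase symbol begins with eIF or eEF, and the rule found 52 of the 14228 genes in the processed tables, with 122 annotated transcripts between them. Estimated counts were summed over the transcripts of each gene. All animals were late larvae (stage L3) that carried UAS-CD:UPRT, a transgene for an enzyme pair that lets a cell turn 5-ethynylcytosine into a nucleotide that RNA polymerase takes up. The neuroblast libraries came from animals in which insc-Gal4, a driver active in neural progenitors, switched the transgene on, and the neuron libraries from animals in which nSyb-Gal4, a driver active in differentiated neurons, did so. Larvae of both genotypes were fed 5-ethynylcytosine for 12 h (the pulse) and were then sampled, or were moved to food with an excess of untagged uridine for 3, 6 or 12 h (the chase). Tagged RNA was biotinylated, captured on streptavidin beads and sequenced after rRNA depletion, with 2 labelled replicates at each of 4 time points of either cell type and 16 libraries in all. The study's methods describe independent feedings and duplicate capture of the RNA, and the labels do not say which the replicate numbers stand for. The p-values of level comparisons thus measure the spread between these replicates, which may be technical. Those of slopes measure the spread of libraries about a straight line over the chase, which includes the spread between replicates. The brains were crudely dissected, every library is a bulk sample, and no untagged or undriven control was analysed here. In such samples a smaller number of labelled cells and less labelled RNA per cell cannot be told apart.

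Initiation factors bring the initiator tRNA, the mRNA and the ribosomal subunits together. The eIF2 trimer carries the initiator tRNA with GTP and is recharged by the eIF2B exchange factor, eIF3 is the scaffold on the small subunit, and the eIF4 proteins bind the cap and unwind the leader of the mRNA. Elongation factors then work at every codon: eEF1alpha delivers aminoacyl-tRNA, a complex of the other eEF1 subunits exchanges its nucleotide, and eEF2 moves the ribosome along. In many animals the mRNAs of elongation factors and ribosomal proteins are long-lived and are regulated together at the level of translation. Neuroblasts are large progenitors that regrow between divisions, and this growth needs a high output of ribosomes and protein, whereas neurons have left the cell cycle.

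The 2 sets of libraries differed widely in quality. Totals ran between 11053940 and 31713720 counts in neuroblasts and between 44317916 and 211109573 counts in neurons. Mitochondrially encoded genes took 9.67% to 12.8% of the neuroblast libraries, against 86.3% to 92.1% of the 4 neuron libraries of replicate 1 and 2.76% to 11.9% of the 4 neuron libraries of replicate 2. Annotated rRNA genes took 6.99% to 27.6% of 7 neuroblast libraries and 56.3% of the eighth, the 12 h chase of replicate 1, in which 1861 genes had at least 10 counts. Summed levels of the neuroblast marker list (6 genes) were 0.814 to 165 CPM (the library's count scaled to a common total) in neuroblast libraries and 0.203 to 333 CPM in neuron libraries. The neuron marker list (7 genes) summed to 331 to 1331 CPM in neuroblast libraries and 339 to 4937 CPM in neuron libraries, so the markers did not set the neuroblast libraries apart as their label would, and the names below are those of the labels. Muscle markers (3 genes) summed to 7421 to 56933 CPM in neuroblast libraries against 12.1 to 7419 CPM in neuron libraries, and fat body markers (4 genes) to 4110.1 to 24210.4 CPM against 2.72 to 2424 CPM.

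All but 6 of the members reached 10 counts in some neuroblast library, and 21 members did so in all 8. The 6 that never did were eIF3d2, eIF3g2, eIF4E4, eIF4E6, eIF4E7 and eIF4H2, which are paralogues of broadly used factors. In neurons 3 members, eEF1alpha1, eEF2 and the cap-binding repressor eIF4EHP, reached 10 counts in all 8 libraries. Detection was uneven there: 16 members never reached 10 counts in replicate 1, whereas 23 did so in each library of replicate 2. All 52 did so in the 12 h library of replicate 2. Within replicate 2 detection did not follow total counts. Of all genes, 2280 reached 10 counts in its pulse library (211109573 counts) and 13917 in its 12 h library (102464019 counts). A count of 0 allows a level of up to 0.0949 to 0.271 CPM in neuroblast libraries and 0.0142 to 0.0677 CPM in neuron libraries, taking 3 counts as the limit, and such limits and intervals cover counting error only.

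By level, the elongation machinery dominated. In TPM, which divides by transcript length and so allows genes to be ordered, the median over the 8 neuroblast libraries was 4485 TPM for eEF1alpha1, 2059 TPM for eEF2 and 1392 TPM for eEF5, the factor that helps the ribosome through proline stretches. The eEF1 subunit eEF1gamma followed with 853 TPM and the helicase eIF4A with 810 TPM. The exchange subunit eEF1beta had 411 TPM, eIF1, which guards start codon choice, 401 TPM, and the helicase cofactor eIF4B and the scaffold eIF4G1 both 352 TPM. In the 4 neuron libraries of replicate 2 the medians were 6437 TPM for eEF1alpha1, 1774 TPM for eEF2, 754 TPM for eEF1gamma, 600 TPM for eIF4A and 390 TPM for eIF4G1. The first 2 places were the same in both cell types. At the other end, the median was 0 TPM for 11 members in neuroblasts, among them eIF6, which holds the large ribosomal subunit apart, and eIF2Balpha. The eEF1alpha1 libraries spread from 2299 to 9941 TPM in neuroblasts, so the places of neighbours in this order are within the spread between libraries.

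**Figure D1:**
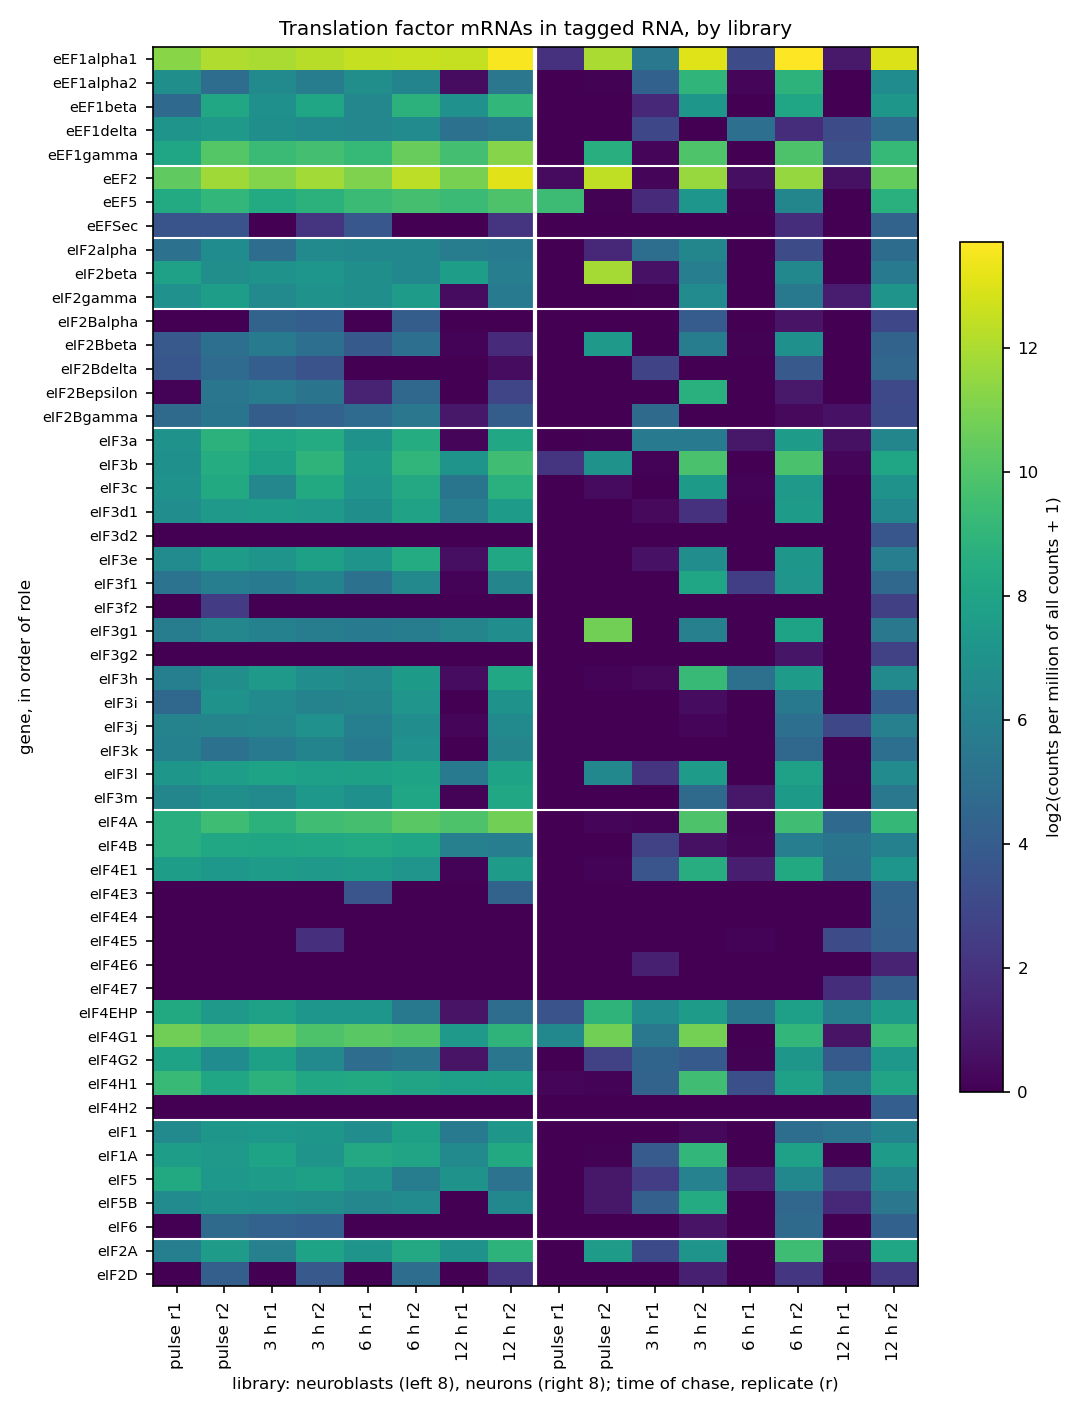
Colour map of the level of each of the 52 members (down the page, by role) in each of the 16 libraries (across, neuroblasts on the left and neurons on the right), as log2 of CPM plus 1. eEF1alpha1 and eEF2 are bright in all 8 neuroblast libraries, and 16 members stay under 10 counts in all 4 neuron libraries of replicate 1, where the map is dark.

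In neuroblasts, 4 members rose over the chase relative to the rest of the labelled RNA: the elongation factors eEF1alpha1, eEF2 and eEF1gamma, and the helicase eIF4A. None fell. The change was measured as the slope of log2 level per hour of chase over the 8 neuroblast libraries, and 44 members were among the 9962 genes that passed the filter on low counts. The 4 members are set against 0.602% of all tested genes called as rising and 0% called as falling (adjusted p under 0.05, edgeR's quasi-likelihood test with Benjamini-Hochberg adjustment). At an unadjusted p under 0.05, 8 members had a slope above 0 and 0 a slope below 0, against 4.15% and 3.91% of all genes, and DESeq2 called 14 of the 35 members to which it gave an adjusted p as rising and 0 as falling, against 29.4% and 1.79% of all genes with one. Because levels are scaled against the other labelled RNA of the same library, a slope above 0 is a gain relative to other genes. It is not a gain in molecules and need not be a gain in share of all counts. With total counts alone 15 of 44 members had a slope above 0, against 28 in the main fit. Slopes also went with level. Their rank correlation (Spearman) with mean level was 0.62 among members and 0.39 among all genes tested. The 4 called members hold places 1, 2, 4 and 5 by median TPM in neuroblasts, so the shares of all genes are not those of genes of like level. The part of level in the calls was not tested.

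The largest counts and the firmest call were those of eEF1alpha1, which loads aminoacyl-tRNA onto the ribosome. It had 46032 and 54459 counts at the pulse, 104849 and 152238 at 3 h, 84806 and 124488 at 6 h, and 63285 and 241568 at 12 h (replicates 1 and 2). CPM was also scaled by edgeR's TMM factors, which aim to set most genes level between libraries. After this scaling the median slope of all genes was still −0.10 per hour, with 69.3% of genes below 0. The scaled CPM of eEF1alpha1 was 1812 and 2758 at the pulse, 2971 and 3209 at 3 h, 5514 and 6457 at 6 h, and 15519 and 19396 at 12 h. Both replicates were higher at each later time and no 2 time points overlapped. The slope was 0.25 log2 units per hour (SE 0.048, n = 8 libraries, adjusted p = 0.000896), and it was 0.26 in replicate 1 alone and 0.25 in replicate 2 alone.

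The translocase eEF2 had 968 and 2222 scaled CPM at the pulse, 1695 and 2359.6 at 3 h, 2049 and 5633 at 6 h, and 5132 and 13811 at 12 h. Both 12 h libraries lay above every pulse and 3 h library, but the replicates differed more than for eEF1alpha1. Its slope was 0.22 per hour (SE 0.054, adjusted p = 0.0229). The helicase eIF4A, which unwinds the leader of the mRNA ahead of the small subunit, had 296 and 436 scaled CPM at the pulse, 328 and 478 at 3 h, 774 and 1249 at 6 h, and 2566 and 2786 at 12 h, with a slope of 0.25 (SE 0.064, adjusted p = 0.0303). From 6 h on its values lay above all pulse and 3 h values. The subunit eEF1gamma had 204 and 683 scaled CPM at the pulse, 467 and 525 at 3 h, 559 and 1573 at 6 h, and 2086 and 3757 at 12 h, with a slope of 0.24 (SE 0.063, adjusted p = 0.0455). Its pulse and 3 h libraries overlapped and only its 12 h libraries stood clear.

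**Figure D2:**
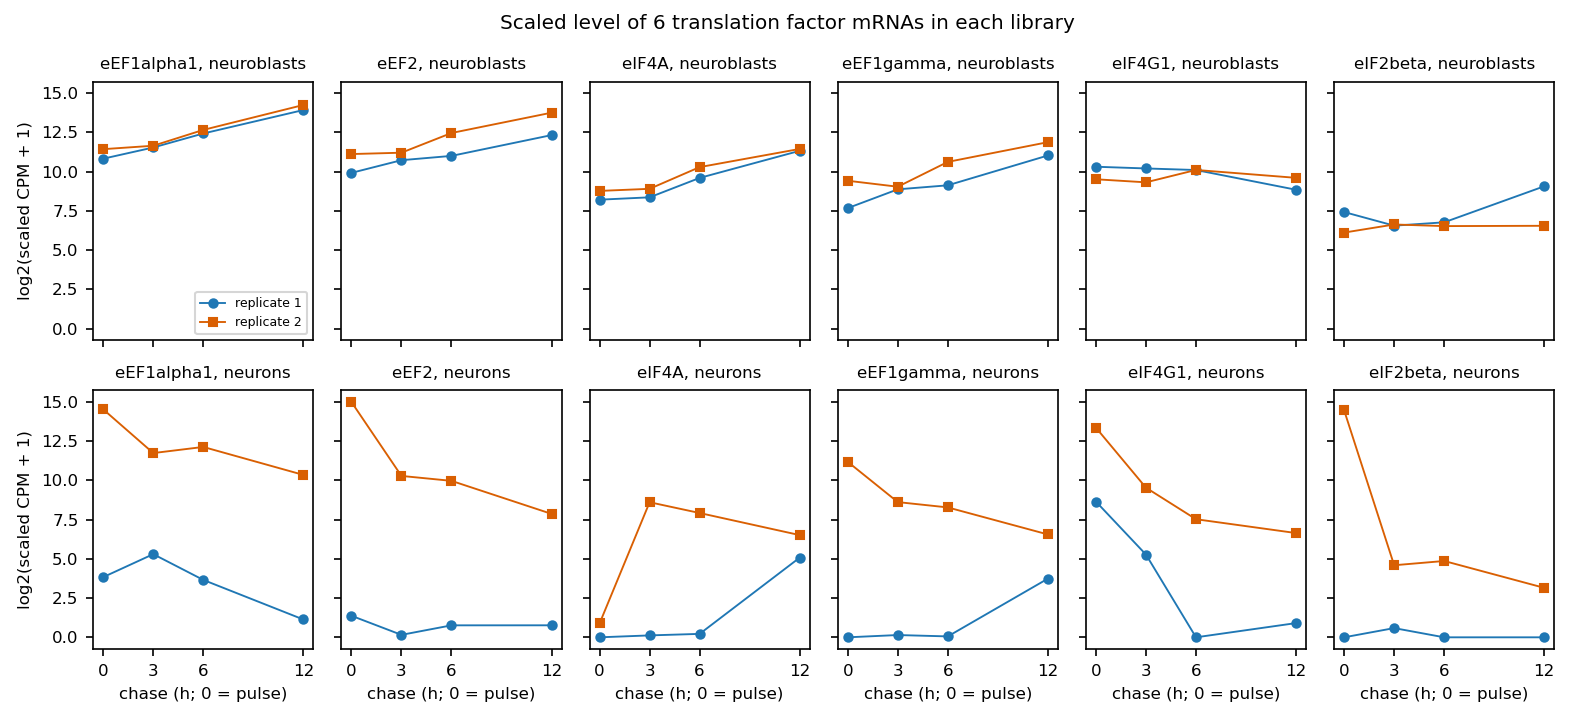
Scaled level, as log2 of scaled CPM plus 1, against hours of chase (0 is the pulse) for eEF1alpha1, eEF2, eIF4A, eEF1gamma, eIF4G1 and eIF2beta, with neuroblasts in the upper panels, neurons in the lower ones and a line for each replicate. In neuroblasts both eEF1alpha1 lines climb, with 1812 and 2758 scaled CPM at the pulse and 15519 and 19396 at 12 h, and in neurons the lines of replicates 1 and 2 lie far apart.

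The calls rested on the 12 h libraries. Without the 12 h library of replicate 1, the one with 56.3% rRNA, the slopes were 0.26 for each of the 4 and no member passed the test (eEF1alpha1 adjusted p = 0.115). Without the 12 h library of replicate 2, eEF1alpha1 alone passed (0.24, adjusted p = 0.00181), and the slopes of the other three were 0.16 for eEF2, 0.25 for eIF4A and 0.20 for eEF1gamma. Leaving out the 3 h library of either replicate, or the pulse library of replicate 1, left eEF1alpha1 and eEF2 called. Scaling mattered as well: the TMM factors were 1.36 and 1.58 at the pulse and 0.369 and 0.624 at 12 h. With total counts alone the slopes were 0.12, 0.09, 0.12 and 0.11 for eEF1alpha1, eEF2, eIF4A and eEF1gamma, none passed (eEF1alpha1 adjusted p = 0.468), and the median slope of all genes moved by −0.12 to −0.22. Over all alternatives tried, each of the 4 slopes stayed above 0, between 0.12 and 0.42 for eEF1alpha1, and the call was kept in 15 of 21 alternatives for eEF1alpha1, 13 of 21 for eEF2, 12 of 20 for eIF4A and 10 of 20 for eEF1gamma.

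The ratio of counts to another member within a library is given as a description. The scaffold eIF4G1 was taken as the partner, after its values were seen, because it is abundant and had a slope near 0 under TMM scaling, so the ratio carries that scaling over and is no independent measure of the rise. The ratio of eEF1alpha1 to eIF4G1 in neuroblasts was 1.43 and 3.78 at the pulse, 2.52 and 5.04 at 3 h, 5.02 and 5.86 at 6 h, and 33.8 and 25.0 at 12 h. The ratio of eIF4A to eIF4G1 was 0.233 and 0.598 at the pulse and 5.59 and 3.59 at 12 h, and that of eEF2 to eIF4G1 was 0.762 and 3.05 at the pulse and 11.2 and 17.8 at 12 h. In each of these ratios both 12 h libraries lay above all 6 earlier ones. eIF4G1 itself had 1269 and 729 scaled CPM at the pulse, 1177 and 637 at 3 h, 1098 and 1101 at 6 h, and 459 and 777 at 12 h. Both 12 h values lay below both 6 h values, so the partner also moved where the ratios were highest, and the 12 h values overlapped those of the pulse and 3 h. Unscaled, eIF4G1 had 1726 and 1152 CPM at the pulse and 169 and 484 CPM at 12 h.

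**Figure D3:**
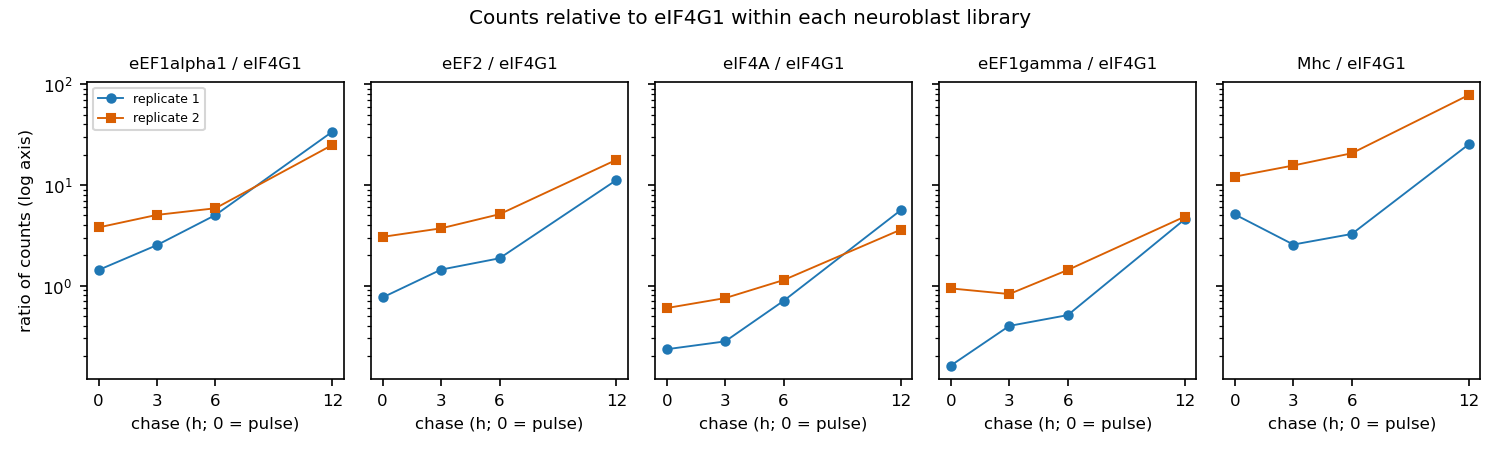
Ratio of counts to eIF4G1 within each neuroblast library (log axis) against hours of chase (0 is the pulse), for eEF1alpha1, eEF2, eIF4A, eEF1gamma and the muscle gene Mhc, with a line for each replicate. The eEF1alpha1 ratio is 1.43 and 3.78 at the pulse and 33.8 and 25.0 at 12 h, and the Mhc ratio is 5.09 and 12.1 at the pulse and 25.3 and 78.2 at 12 h.

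The tested muscle and fat body markers had slopes in the same direction. Of the 60 genes called as rising in neuroblasts, 15 encode cytosolic ribosomal proteins, 7 are rRNA genes or pseudogenes, 2 are mitochondrially encoded and 4 are the members above. All 3 muscle markers were among them (Mhc, the muscle myosin heavy chain, 0.20, Mlc2 0.23, up 0.22), and so was the fat body storage protein gene Lsp1beta (0.23). The summed muscle markers were 16125 and 19422 CPM at the pulse and 11952 and 56933 CPM at 12 h, and the summed fat body markers 4184 and 4110.1 CPM at the pulse and 20835 and 4684 CPM at 12 h. The ratio of Mhc to eEF1alpha1 was 3.20, 3.09, 3.52 and 3.13 over the 4 time points of replicate 2, and 3.56, 1.01, 0.648 and 0.748 over those of replicate 1. The part of muscle or fat body RNA in the rise of the members was not tested. Among neuroblast markers, which were at most 165 CPM in sum, 5 were tested and 0 had a slope above 0. Of the other lists, 1 of 3 hemocyte, 3 of 7 neuron and 3 of 4 glia markers had a slope above 0, and none was called. Of all genes tested, 69.3% had a slope below 0.

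Members did not move as a block in neuroblasts. Of the 44 tested, 28 had a slope above 0 and 16 below, with a median of 0.079 against −0.10 for all genes, of which 69.3% were below 0. Taken by role, the eEF1 subunits had a median slope of 0.22 and eIF3 one of 0.11, whereas eIF2B, the exchange factor that recharges eIF2, had −0.28. All 13 tested eIF3 subunits were above 0, and 0 of the 5 eIF2B subunits were. None of these 18 genes passed the test. With total counts 6 of the 13 eIF3 subunits were above 0, and without the 12 h library of replicate 2 it was 5 of 14, though 13 lay above the median of all genes in both. For eIF2B, 3 of 5 subunits were above 0 without the 12 h chase.

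Further members had slopes of like size without passing the test. The factor eEF5 had 246 and 339 scaled CPM at the pulse, 243 and 301 at 3 h, 624 and 866 at 6 h, and 1758.5 and 1494 at 12 h (slope 0.22, adjusted p = 0.111). The slope was 0.24 for eIF2A (adjusted p = 0.286), which can deliver initiator tRNA outside the eIF2 route in mammals, 0.22 for eEF1beta (adjusted p = 0.369) and 0.19 for the eIF3 core subunit eIF3b (adjusted p = 0.469). eIF4EHP, a cap-binding repressor of translation, had 6006 and 2160 counts at the pulse, 5931 and 4685 at 3 h, 2166 and 964 at 6 h, and 8 and 580 at 12 h. Its scaled CPM was 236 and 109 at the pulse, both above the 12 h libraries, with a slope of −0.24 (SE 0.12, adjusted p = 0.612). The steepest fitted slopes below 0 belonged to members close to 0 counts in several libraries. eIF6 (−1.11) had 0 and 320 counts at the pulse, 482 and 515 at 3 h and 0 in all 4 later libraries, and eIF2Bdelta (−0.50) had 219 and 330 at the pulse, 417 and 328 at 3 h, 0 and 0 at 6 h, and 0 and 7 at 12 h. eIF2Balpha (−0.58) had 0 counts in 5 of 8 libraries and eIF4E3 (1.11), a cap-binding paralogue known from the testis, 0 in 5 of 8.

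The 12 h libraries were also set against the pulse libraries with no model and no test. In neuroblasts both 12 h libraries lay above both pulse libraries for 13 of 44 members, against 7.09% of all genes, and below for 7 of 44, against 28.8%. The 13 held all 4 called members, eEF5, eEF1beta, eIF1, eIF1A, eIF2A, eIF2alpha and the eIF3 subunits eIF3b, eIF3d1 and eIF3g1. The 7 were eEF1delta, eEFSec, eIF2Bbeta, eIF2Bdelta, eIF2gamma, eIF4B and eIF4EHP. Members took 1.47% and 2.02% of the nuclear counts outside rRNA genes at the pulse, 1.93% and 2.05% at 3 h, 2.47% and 3.15% at 6 h, and 3.67% and 4.66% at 12 h. Cytosolic ribosomal proteins took 1.30% and 3.26% of the same counts at the pulse and 8.51% and 8.79% at 12 h.

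**Figure D4:**
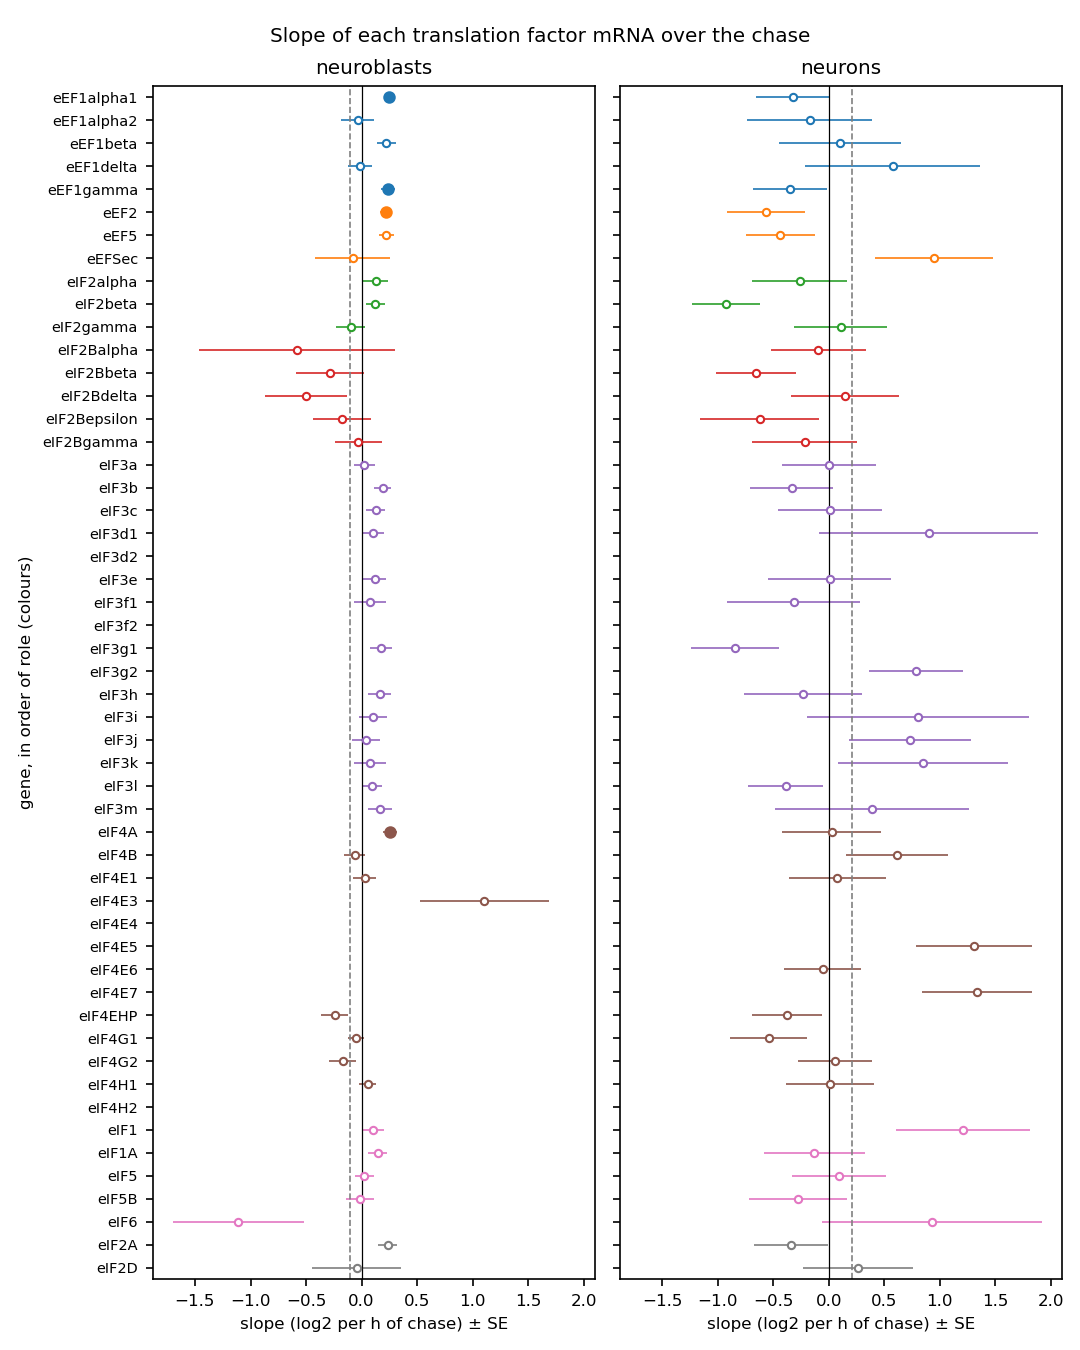
Slope of each tested member (log2 per hour of chase, bars of 1 standard error), neuroblasts in the left panel and neurons in the right, in order of role (colours), with a dashed line at the median slope of all genes (−0.10 in neuroblasts and 0.21 in neurons). Filled points are the 4 members that passed the test in neuroblasts, and most bars are wider in neurons, where no point is filled.

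In neurons no member passed the test. The fit held 47 members of 11724 genes, and 0% of all genes were called as rising and 0% as falling (edgeR's quasi-likelihood test). At an unadjusted p under 0.05, 3 members had a slope above 0 and 2 below, against 8.69% and 1.65% of all genes, and DESeq2 called 0 of 36 members as rising and 2, eIF2beta and eIF3g1, as falling, against 5.5% and 3.91% of all genes. Of the 47 slopes 24 were above 0 and 23 below, with a median of 0.0083 against 0.21 for all genes. The median biological coefficient of variation of members was 2.47 in neurons against 0.969 in neuroblasts. That of all genes tested was 2.98 in neurons and 1.78 in neuroblasts. The rank correlation of slope with mean level in neurons was −0.79 among members and −0.58 among all genes tested.

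The widest spread in neurons came from the pulse. eIF2beta, a subunit of the initiator tRNA carrier, had 0 and 797191 counts at the pulse, 57 and 10103 at 3 h, 0 and 14581 at 6 h, and 0 and 4963 at 12 h (replicates 1 and 2). eIF3g1, an eIF3 subunit with an RNA-binding domain, had 0 and 375007 counts at the pulse, 0 and 10859 at 3 h, 0 and 42925 at 6 h, and 0 and 4436 at 12 h. In both, 1 library held most of the counts. The slopes were −0.93 (SE 0.30, adjusted p = 0.114) and −0.85 (SE 0.39, adjusted p = 0.418), and without the pulse library of replicate 2 they were −0.07 and −0.10. Fitted on replicate 2 alone, with 1 library at each time point, the slopes were −0.85 and −0.77, and that fit includes the same pulse library.

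The members called in neuroblasts did not pass in neurons. eEF1alpha1 had 13.3 and 23468 scaled CPM at the pulse, 38.3 and 3407 at 3 h, 11.6 and 4465 at 6 h, and 1.20 and 1299 at 12 h (slope −0.32, adjusted p = 0.788). eEF2 had 1.59 and 32551 scaled CPM at the pulse, 0.115 and 1242 at 3 h, 0.697 and 999 at 6 h, and 0.699 and 232 at 12 h (slope −0.56, adjusted p = 0.585). The replicates differed by far more than the time points did. eEF1gamma (slope −0.35) had 0 and 81732 counts at the pulse, 12 and 170820 at 3 h, 2 and 160184 at 6 h, and 917 and 58467 at 12 h, and eIF4A (slope 0.03) had 0 and 30 counts at the pulse, 10 and 169745 at 3 h, 8 and 125036 at 6 h, and 2432 and 56796 at 12 h.

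For eIF4G1 both 12 h libraries lay below both pulse libraries in scaled CPM, which held for 1 of 47 members and 1.11% of all genes. It had 399 and 10441 scaled CPM at the pulse, 37.6 and 738 at 3 h, 0 and 183 at 6 h, and 0.874 and 98.8 at 12 h, with a slope of −0.54 (adjusted p = 0.607). The TMM factors of the neuron libraries were 0.213 and 0.168 at the pulse and 0.769 and 6.32 at 12 h, and in unscaled CPM the groups overlapped (84.9 and 1751 at the pulse, 0.672 and 609 at 12 h). The reverse held for 14 members, against 36.6% of all genes. Among those, the start codon factor eIF1 had 0 counts in both pulse libraries, 0 and 38 at 3 h, 0 and 5287 at 6 h, and 3558 and 7410 at 12 h (slope 1.21, adjusted p = 0.470). The cap-binding paralogues eIF4E5 and eIF4E7 had at most 7 counts before 12 h, and at 12 h had 777 and 1809 counts and 242 and 1601 counts (slopes 1.31 and 1.33, adjusted p = 0.289 and 0.220). Of all genes, 918 and 2280 had at least 10 counts in the neuron pulse libraries, against 5175 and 13917 in those of 12 h. Genes first seen late were thus common in these libraries. In neuroblasts eIF4E5 had 86 counts in 1 library and eIF4E7 had 0 counts in all 8. A library can also stand alone in replicate 1: eEF5 had 30157 counts in the pulse library of replicate 1, most of the 34679 counts of all members there, and 8 in that of replicate 2.

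The remaining named members showed the same unevenness. eIF3m, an eIF3 subunit, had 1448 and 1386 counts at the pulse, 2442 and 4910 at 3 h, 1685 and 5452 at 6 h, and 1 and 5845 at 12 h in neuroblasts. In neurons it had 0 and 2 counts at the pulse, 0 and 4641 at 3 h, 60 and 31026 at 6 h, and 0 and 4564 at 12 h. eIF2beta in neuroblasts had 4342 and 1351 counts at the pulse, 3291 and 4660 at 3 h, 1664 and 1763 at 6 h, and 2181 and 1154 at 12 h, so its groups overlapped where the neuron pulse libraries were at 0 and 797191. In neurons eIF6 had at most 4480 counts, eIF2Balpha at most 2639, eIF2Bdelta at most 2268 and eIF4E3 at most 2105, and each was under 10 counts in 5 or more of the 8 libraries.

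A decay curve with 1 phase through the pulse mean could be drawn for few members. In neuroblasts 14 of 44 members gave a half-life, 9 of them at the upper limit of 480 min allowed to the fit, and the shortest was that of eIF2Bdelta (174 min). In neurons 12 of 47 gave one, with a median of 46.0 min, and the shortest were those of eIF2beta (18.2 min) and eIF3g1 (20.7 min), whose pulse value rested on 1 library. Both replicates alone gave a half-life for 8 members in neuroblasts and 4 in neurons. The half-life of eEF1alpha1 in neurons was 80.0 min, with 480 min in replicate 1 and 79.5 min in replicate 2 alone. That of eEF2 was 38.9 min, with 137 min in replicate 1 and 38.9 min in replicate 2 alone. Both rested on the scaled pulse value of replicate 2, and unscaled eEF1alpha1 in replicate 2 had 3936 CPM at the pulse and 8008 CPM at 12 h. Neither gene had a half-life in neuroblasts.

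The cell types were then compared directly in a fit over all 16 libraries, which tested 49 members among 12694 genes. The slope difference, neuroblasts minus neurons, was called for 1 member, eIF3f2, a paralogue of an eIF3 subunit, at −1.99 log2 units per hour (SE 0.51, adjusted p = 0.0286). Of all genes, 0.512% had a larger slope in neurons and 0.0551% a larger slope in neuroblasts. The eIF3f2 call rested on 2 libraries, the neuroblast pulse of replicate 2 with 52 counts and the neuron 12 h chase of replicate 2 with 513 counts, since the other 14 held 0. Without the first the difference was −1.04 and without the second −0.81, and neither passed. DESeq2 did not call eIF3f2 (−0.70, adjusted p = 0.542). It called 7 of 49 members with a larger slope in neuroblasts and 1, eIF4E6, with a larger slope in neurons, against 3.06% and 14.7% of all genes. eIF4E6 had 0 counts in every neuroblast library and at most 166 in a neuron library. The edgeR difference for eIF4E6 was 0.055 with an SE of 334. The next members were eIF2beta (1.02, adjusted p = 0.0806), eIF3g1 (0.97, adjusted p = 0.113) and eEF2 (0.72, adjusted p = 0.231) toward neuroblasts, and eIF4E5 (−1.96, adjusted p = 0.284) and eIF6 (−2.09, adjusted p = 0.311) toward neurons. At an unadjusted p under 0.05 there were 4 members in each direction, against 1.38% of all genes with a larger slope in neuroblasts and 13% with a larger slope in neurons. The difference was below 0 for 21 members and above 0 for 28, where 75.1% of all genes were below 0.

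No member passed edgeR's test without a replicate block for a difference in level between neuroblasts and neurons. At the pulse 0 of 49 members passed in either direction (0% of all genes in either), and the smallest adjusted p was 0.387. At an unadjusted p under 0.05, 9 members were higher in neuroblasts and 0 were lower, against 6.52% and 1.67% of all genes, and DESeq2 called 15 of 45 higher and 4 lower, against 22.5% and 9.79% of all genes. Averaged over the 4 times, 0 of 49 passed in either direction, where 0.347% of all genes were higher in neuroblasts and 1.11% lower, with 10 and 0 members at an unadjusted p under 0.05, against 10.2% and 6.66% of all genes. DESeq2 called 19 of 46 higher and 1 lower, against 21.7% and 15% of all genes. With the replicate number as a block in edgeR, 17 of 49 were higher over all times and 0 lower, against 7.87% and 3.01% of all genes, and replicate number also separates the neuron libraries by their mitochondrial share. Without the block the nearest was eIF1, with a difference of 6.87 log2 units (adjusted p = 0.0627).

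Isoforms were followed through the transcript counts, since 30 of the members have several annotated transcripts. In neuroblasts 12 of the 28 members that could be judged had the same leading transcript in every library with at least 10 counts, and in neurons 5 of 26 did. The transcript estimates share reads wherever exons overlap, so a small change in coverage can move all counts of a gene onto another model. The test for a change in transcript use over the chase called 0 of 23 members in neuroblasts and 0 of 22 in neurons (0% of all genes tested in either), with 2 members in each at an unadjusted p under 0.05, against 4.55% and 7.57% of all genes.

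eEF2 was the member with a transcript that passed the test, in neurons. Its transcripts FBtr0085911 (eEF2-RA) and FBtr0332966 (eEF2-RD; BDGP6, chromosome 2L, minus strand) encode the same protein and differ by 237 bases at the 3′ end. In neurons FBtr0085911 held 15 and 1150000 counts at the pulse, 0 and 0 at 3 h, 34 and 0 at 6 h, and 0 and 0 at 12 h. FBtr0332966 held 0 and 241 counts at the pulse, 13 and 543298 at 3 h, 0 and 518818 at 6 h, and 52 and 126587 at 12 h, so in replicate 2 the lead passed from the shorter to the longer model after the pulse. The slope of FBtr0085911 in neurons was −2.07 (SE 0.44, adjusted p = 0.0202), 1 of 87 member transcripts tested, against 0.0333% of all transcripts called as falling and 0% as rising. It was −0.72 (adjusted p = 0.885) without the pulse library of replicate 2, and the isoform test of eEF2 gave an adjusted p of 0.131. In neuroblasts FBtr0085911 held 66.7% to 90.4% of the eEF2 counts in 7 libraries, while FBtr0332966 led in the 12 h chase of replicate 1 with 66.0% (95% Wilson interval 65.4 to 66.7). Of 79 member transcripts tested in neuroblasts 0 passed, against 0.0557% of all transcripts rising and 0.00619% falling, with 1 rising and 2 falling of 78 by DESeq2, against 1.6% and 7.16% of all transcripts. At an unadjusted p under 0.05, 9 member transcripts had a slope above 0 and 1 below in neuroblasts (1.32% and 5.52% of all transcripts), and 5 above and 4 below in neurons (9.85% and 1.83%).

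eEF1gamma used a different leading transcript in the 2 cell types. FBtr0085393 (eEF1gamma-RA; chromosome 3R, 29220264 to 29222109, plus strand, 3 exons) took all of its counts in all 8 neuroblast libraries. In the neuron libraries of replicate 2 it was FBtr0085392 (eEF1gamma-RB), which starts 92 bases upstream and has 4 exons and the same coding sequence, that led with 99.9% of the counts at the pulse, 61.1% at 3 h (60.8 to 61.3), 99.0% at 6 h and 98.1% at 12 h. In the neuron libraries of replicate 1 with at least 10 counts, at 3 h and 12 h with 12 and 917 counts, FBtr0085393 led again, so the difference followed replicate 2 and not every neuron library. It was not tested.

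Leads that changed between libraries of 1 cell type were common among the abundant members. For eEF1alpha1 (chromosome 2R, plus strand) the single-exon transcript FBtr0345022 (eEF1alpha1-RD) led in 5 of 8 neuroblast libraries, all 4 of replicate 2 among them with 63.5% to 71.0%, and the transcript FBtr0331927 (eEF1alpha1-RC), with 2 exons and the same coding sequence, led in the other three, with 100% at the pulse of replicate 1. In neurons FBtr0331927 led in 6 of 8 libraries, with 99.9% at 3 h of replicate 2, while FBtr0345022 had 69.4% at the pulse of replicate 2. For eIF3b, transcript FBtr0086941 (eIF3b-RB) led in the pulse, 3 h and 12 h neuroblast libraries of replicate 1 and FBtr0086942 (eIF3b-RA) in the other five. The transcripts FBtr0079951 and FBtr0079952 of the exchange subunit eEF1delta differ by 81 coding bases, and FBtr0079952 led at 6 h in both neuroblast replicates (100% and 94.0%) and FBtr0079951 in the other 6 neuroblast libraries.

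**Figure D5:**
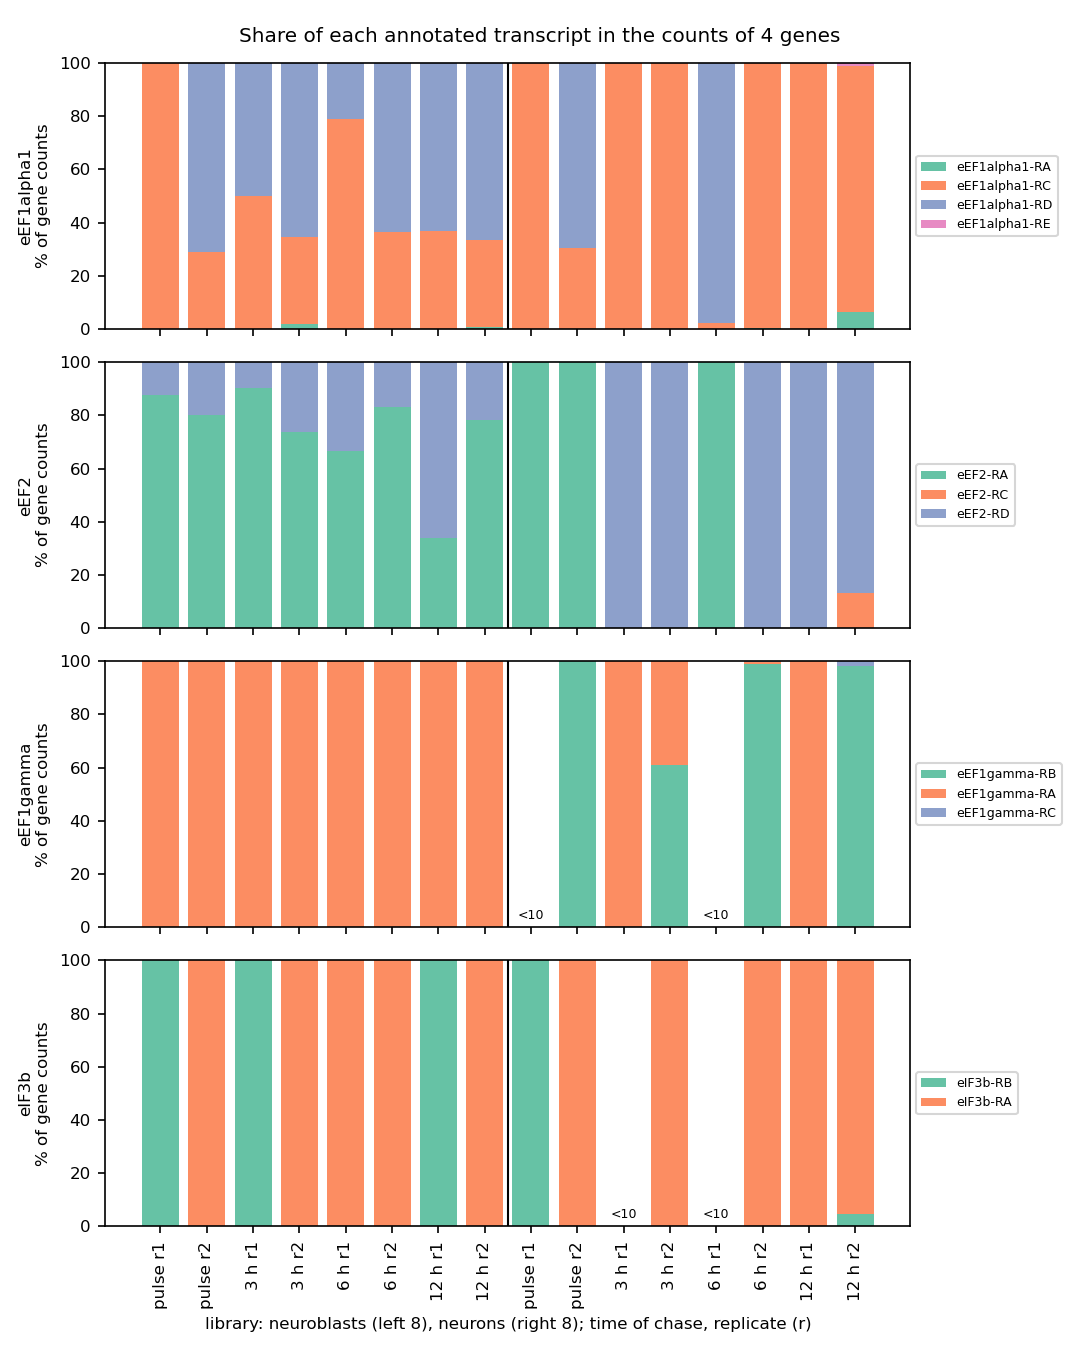
Share of the gene's counts (percent, stacked to 100) held by each annotated transcript of eEF1alpha1, eEF2, eEF1gamma and eIF3b in each library, neuroblasts left of neurons, with libraries under 10 counts marked and left blank. The eEF2 bars of neuron replicate 2 pass to eEF2-RD after the pulse, and the eEF1gamma bars are all eEF1gamma-RA in neuroblasts.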

How the data were processed

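Captured RNA of 16 libraries was analysed, 8 for each cell type. Per the labels and the study's methods, the authors trimmed reads with Trimmomatic and quantified them with kallisto (build BDGP6, versions not given in the sources used here) and deposited estimated counts per transcript in 1 table for each cell type, of 31049 and 30944 transcripts, of which 30819 matched the annotation. The largest values were deposited with 3 digits. Replicates were deposited apart and not pooled. The titles of 7 neuron libraries carry the words "read 1", which no other title has, and whether they were processed like the rest is not given in the sources used here.

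Transcripts were assigned to genes with Ensembl release 115, counts were summed per gene and rounded, and fits were made across all genes in R 4.3.3 with edgeR 4.0.16 (TMM scaling, filterByExpr by time point, quasi-likelihood test, Benjamini-Hochberg adjustment, threshold 0.05). The model was a slope on hours of chase within a cell type (8 libraries), its difference between cell types, and the difference at the pulse and over all times (16 libraries). Transcript use was tested with edgeR's diffSpliceDGE (Simes). DESeq2 1.42.0, other scalings and filters, a replicate block and the omission of each library were alternatives. Half-lives were limited to 480 min. The edgeR fits of slope, transcript use, pulse and level and the half-life fit were tried on simulated data. The simulated spread was smaller than that of members in neurons (median 2.47). It was also smaller than the median of all genes in each fit. That median was 1.78 and 2.98 for slopes in neuroblasts and neurons, 2.59 for the slope difference and 2.27 for pulse and level. For transcripts it was 2.79 in neuroblasts and 3.60 in neurons. Half-lives were simulated with counting error only. The DESeq2 test, the replicate block, the ratios and the comparisons without a test were not simulated.

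Values per library are given for members past the threshold in any fit, the 5 most abundant in each cell type, up to 3 rising and 3 falling with the steepest slopes of the same sign in both replicates, the 3 largest and 3 smallest slope differences, eEF2 and eIF3m. The members and lists were chosen with earlier results of these data known. Same-numbered replicates were not treated as paired in the main fits. Correlations of their deviations were positive, from 0.0595 to 0.206 in neuroblasts and from 0.0617 to 0.309 in neurons. These do not settle the choice, since replicate number also separates the neuron libraries by their mitochondrial share. With it as a block, 17 of 49 members were higher in neuroblasts over all times, against 0 without it.

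Exons of eIF5 overlap CG46312 over 80.8% of their length and those of eIF2gamma overlap Su(var)3-9 over 16.0%. Exons of eIF4G2 overlap CG33111 over 8.56%, those of eIF4EHP overlap Syx1A over 6.96% and those of eIF4A a transposable element over 1.49%. These overlaps are on the same strand, so reads there cannot be told apart. How kallisto divided reads between close copies such as eEF1alpha1 and eEF1alpha2 was not tested. No sequence of the members was used here.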

Additional observations from a re-analysis of the deposited data

Results flagged for a closer look

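The slope of eIF3f2 over the chase, an eIF3 subunit paralogue, differed between the cell types by a test of the difference itself. It was −1.99 log2 units per hour in neuroblasts minus neurons (SE 0.51, adjusted p = 0.0286, edgeR's quasi-likelihood test over 16 libraries). The values behind it were 52 counts in the neuroblast pulse of replicate 2 and 513 counts in the neuron 12 h chase of replicate 2, with 0 counts in every other library. Without the neuroblast library the difference was −1.04, without the neuron library it was −0.81, and neither passed. DESeq2 gave −0.70 (adjusted p = 0.542) and did not call it.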

How the results depend on the processing

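The counts in this section show how the calls depend on the settings. For most settings the share of all genes or transcripts called is not given here, so the counts are no result about the members. Against 4 members rising in neuroblasts, there were 9 with DESeq2 size factors, 14 with the DESeq2 test and 2 with a filter of at least 10 counts in 4 libraries. There were 0 with total counts, 1 transcript per gene, the 12 h chase against the pulse, or no 12 h chase. The count ran from 0 to 6 when a library or replicate was left out. DESeq2 called 2 members falling in neurons, 7 with a larger slope in neuroblasts, 15 higher in neuroblasts and 4 higher in neurons at the pulse, and 19 and 1 over all times, all against 0, and with DESeq2 size factors in edgeR 3 were higher in neuroblasts over all times. With 1 transcript per gene, 1 member fell in neurons and 1 had a larger slope in neuroblasts. The 1 larger slope in neurons was that of eIF3f2. The DESeq2 test called eIF4E6 in its place, a gene with 0 counts in every neuroblast library. The count became 0 with DESeq2 size factors, the stricter filter, no filter and the replicate block. It was also 0 for the 12 h chase against the pulse and without the 12 h chase. Without single libraries or replicates the counts ran from 0 to 8 rising and 0 to 3 falling members in neurons, and from 0 to 1 for the larger slope in neurons.

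For transcript use in neurons (0 members), 1 was called with DESeq2 size factors, 1 with the replicate block and 0 to 1 without a library or replicate. Rising member transcripts in neuroblasts (0) numbered 1 with the DESeq2 test, 1 with no filter, 1 with the block and 0 to 2 without a library or replicate, and falling ones (0) numbered 2 with DESeq2 and 0 to 1 without a library or replicate. Rising member transcripts in neurons (0) numbered 2 with DESeq2. Their number varied widely without a library or replicate, where time points are left with 1 library. The 1 falling in neurons became 0 with total counts, the stricter filter, no filter and the 12 h chase against the pulse, 10 with DESeq2 and 0 to 1 without a library or replicate.

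The median member slope in neuroblasts ran from −0.040 to 0.11 without 1 library and was 0.12 and −0.12 without replicate 1 and without replicate 2. In neurons it was 0.47 for the 12 h chase against the pulse, −0.15 with the stricter filter, 0.13 with total counts and 0.97 without the 12 h chase, and −0.061 to 0.47 without 1 library, 0.085 without replicate 1 and −0.073 without replicate 2. Neuron members with 1 leading transcript numbered 3 at a minimum of 100 counts, and those with a half-life 23 when taken from the log2 slope and 5 to 13 from 1 replicate.

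With total counts 15 of 44 members had a slope above 0 in neuroblasts, against 28. Of the named members, slopes that changed sign in neuroblasts were those of eIF1 (−0.031) and eIF2beta (−0.034) with total counts, and eIF2Balpha (1.55), eIF2beta (−0.049) and eIF4G1 (0.017) without the 12 h chase. That of eIF4G1 was 0.10 with DESeq2 size factors and with the DESeq2 test. In neurons with total counts they were 0.076 for eEF1alpha1, 0.018 for eEF1gamma and 0.058 for eIF2Balpha. eIF2Balpha had 0.83 for the 12 h chase against the pulse and 0.62 without the 12 h chase, eIF4A −1.19 with 1 transcript per gene and eEF1gamma 0.44 with the block. Without a library or replicate the slopes in neuroblasts ran from −0.028 to 0.19 for eIF2beta, −0.47 to 0.25 for eIF3m and −0.12 to 0.010 for eIF4G1. In neurons they ran from −0.51 to 0.86 for eEF1gamma, −1.0005 to 0.73 for eIF2Balpha, −0.76 to 0.75 for eIF2Bdelta and −0.080 to 1.02 for eIF4A. The cause of these changes was not tested.

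With the replicate block 5 members rose in neuroblasts (eEF5 in addition) and 17 were higher in neuroblasts over all times, against 0, and no member fell or passed at the pulse. The replicate numbers were not treated as a pairing. Fits without a whole replicate could not be made for the level differences, and DESeq2 has no test of transcript use. Leaving out a library also changed which genes passed the filter, since its time point then had 1 library. The mostly mitochondrial neuron libraries of replicate 1 and the 12 h neuroblast library of replicate 1 limit what can be seen of members near 0 counts.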

Other observations

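Genes that act on the members were compared through a list of regulators and partners, of which 15 of 16 were found. In neuroblasts 6 had a slope above 0 and 9 below, with a median of −0.033 log2 units per hour, and 1 rose: pAbp, the poly(A)-binding protein that eIF4G holds, at 0.24 (adjusted p = 0.00249, edgeR's quasi-likelihood test). pAbp had 3472 and 1539 scaled CPM at the pulse, 3702 and 1686 at 3 h, 6486 and 4587 at 6 h, and 21684 and 11681 at 12 h. Both 12 h libraries lay above the other 6. Thor, the fly 4E-BP that sequesters eIF4E, had 322 and 232 scaled CPM at the pulse and 158 and 335 at 12 h, with a slope of −0.033 (adjusted p = 0.979), and the replicates went opposite ways. In neurons 3 of the 15 had a slope above 0 and 12 below, with a median of −0.21, and 0 passed. Of all genes tested, 69.3% had a slope below 0 in neuroblasts and 33.7% in neurons, with medians of −0.10 and 0.21. The share called as rising was 0.602% in neuroblasts and 0% in neurons, and 0% were called as falling in either.

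Mitochondrial translation factors, of which 7 of 8 were found, had a median slope of −0.13 in neuroblasts (2 above 0, 5 below) and 0.046 in neurons (4 above, 3 below), with 0 called in either. Cytosolic ribosomal protein genes had a slope above 0 in neuroblasts for 84 of 85 tested, 15 of them called, with a median of 0.25. In neurons 32 of 89 were above 0 and 0 were called, with a median of −0.13. The shares of all genes given above for the regulators apply to these lists as well.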
